A study of Homo sapiens with 12 samples.

Results

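The difference between 2 ways of embedding liver cancer cells in gel was compared between 2 cell lines, gene by gene. For each gene the change was the log2 ratio of Inject-Embed to Mix-Embed culture, and the line difference was this change in Huh7 minus the same change in HLF. A positive line difference therefore means that Inject-Embed stood higher against Mix-Embed in Huh7 than it did in HLF. The contrast used 8 of the 12 libraries, 2 in each of 4 groups, and was tested across 19342 genes of the 58735 in the table.

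Huh7 and HLF are human hepatocellular carcinoma lines, labelled wild-type, grown in the same serum-containing medium. In Mix-Embed, cells were stirred into Matrigel, a basement membrane gel, and poured over a gel layer, with 20000 Huh7 or 10000 HLF cells per well. In Inject-Embed, 4000 Huh7 or 2000 HLF cells were injected as a bolus into the middle of a set gel. Both were harvested between day 6 and day 8. The day of each library is not given, and the embedding method cannot be told apart from the number of cells seeded, in either line. Huh7 was also seeded at a higher number than HLF in both methods. The line difference therefore cannot be told apart from the number of cells seeded in each line. The remaining 4 libraries were flat 2D cultures harvested on day 2, which enter the estimate of spread and are quoted as a reference level. The labels call the replicates biological but name no separate cultures, passages or batches, so p-values measure the spread between the libraries as deposited.

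Low oxygen stabilises the transcription factor HIF, which switches on glycolysis and adaptation genes. Low cell sterol frees SREBP2 to switch on cholesterol synthesis, free zinc acts through MTF1 on metallothioneins, and interferons act through STAT proteins on antiviral genes. Huh7 keeps many traits of hepatocytes, whereas HLF is a mesenchymal line that has lost most of them.

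Library totals were 12325877 to 15565857 counts over the embedded libraries, and replicates differed by a coefficient of variation of 4.59%, with counts that differed beyond sampling noise in every pair. All 6 hepatocyte markers (ALB, AFP, APOB, TTR, SERPINA1 and HNF4A) were detected in Huh7, where they summed to 29600 to 33300 CPM, counts scaled to a common library total. In HLF they summed to 7.92 to 14.7 CPM, with APOB and TTR at 0 in all 4 embedded libraries. Summed over 5 mesenchymal markers, among them VIM, CD44, MSN and TNC, Huh7 had 64.3 to 78 CPM and HLF 2860 to 3180. MSN and TNC were at 0 in Huh7. Summed over 4 epithelial markers, keratins included, Huh7 had 1110 to 1320 CPM and HLF 3430 to 3520, so HLF stood higher in both sums. The epithelial sum does not describe each member: CDH1, 1 of the 4, was far higher in Huh7 than in HLF, with values given below. Line accounted for the first principal component (93.7% of the variance). On the second (2%) the methods separated in Huh7 (32.47 and 37.89 in Inject-Embed, -34.13 and -35.31 in Mix-Embed). In HLF they separated less there (8.28 and 5.93, -6.19 and -8.93) and more on the third component (1.1%), at -29.34 and -22 in Inject-Embed and 28.22 and 23.16 in Mix-Embed. The fourth component set the 2 Huh7 Inject-Embed replicates apart (-34.74 and 31.98). Mitochondrial ribosomal RNA took 0.477% to 0.487% of counts in Huh7 Inject-Embed and 0.504% to 0.543% in Huh7 Mix-Embed. The corresponding shares in HLF were 0.468% to 0.477% and 0.579% to 0.597%. These shares moved with the embedding method in both lines, as did the summed hepatocyte markers, which were 7.92 to 8.25 CPM in HLF Inject-Embed and 13.1 to 14.7 in HLF Mix-Embed. Their part in the results was not tested.

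Of the 19342 genes, 2044 (10.6%) were called for the line difference at an adjusted p under 0.05, 893 (4.62%) higher and 1151 (5.95%) lower. Differences of at least 1 log2 unit made up 421 of them (2.18% of genes), 135 higher and 286 lower. Within the lines, Inject-Embed differed from Mix-Embed in 4435 genes in Huh7 (22.9%), 1848 higher (9.55%) and 2587 lower (13.4%). In HLF it differed in 1600 genes (8.27%), 689 higher (3.56%) and 911 lower (4.71%). The HLF count fell to 791 and 747 without Inject-Embed replicate 1 or 2 of HLF, and to 1033 and 798 without Mix-Embed replicate 1 or 2. The majority of lower calls in the line difference also depends on the scaling: 43.7% of the calls were higher with TMM scaling, 61.2% with library totals alone and 56.5% with the 8 embedded libraries fitted alone. The median line difference of all tested genes was -0.02 with TMM and 0.04 with library totals.

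Most line differences were changes called in Huh7 alone. By the calls within the lines, 1335 of the 2044 genes (65.3%) changed in Huh7 only, 283 (13.8%) in HLF only, 93 (4.5%) in both with the same sign and 134 (6.6%) in neither. Another 199 genes, 1.03% of those tested, changed in both lines with opposite signs, 71 higher and 128 lower. The change was larger in Huh7 than in HLF for 1580 of the called genes (77.3%). Both lines expressed nearly all of them: 1960 of the 2044 reached a group mean of 1 CPM in each line, and 84 did not. Over the 12865 genes measured in both lines, the changes had an SD of 0.418 in Huh7 and 0.288 in HLF, with Pearson's r of 0.19 and Spearman's rho of 0.196 across genes, given as a description since genes share libraries. Genes called in both lines numbered 715, which is 16.1% of the Huh7 calls and 44.7% of the HLF calls, and 516 of them had the same sign.

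**Figure D1:**
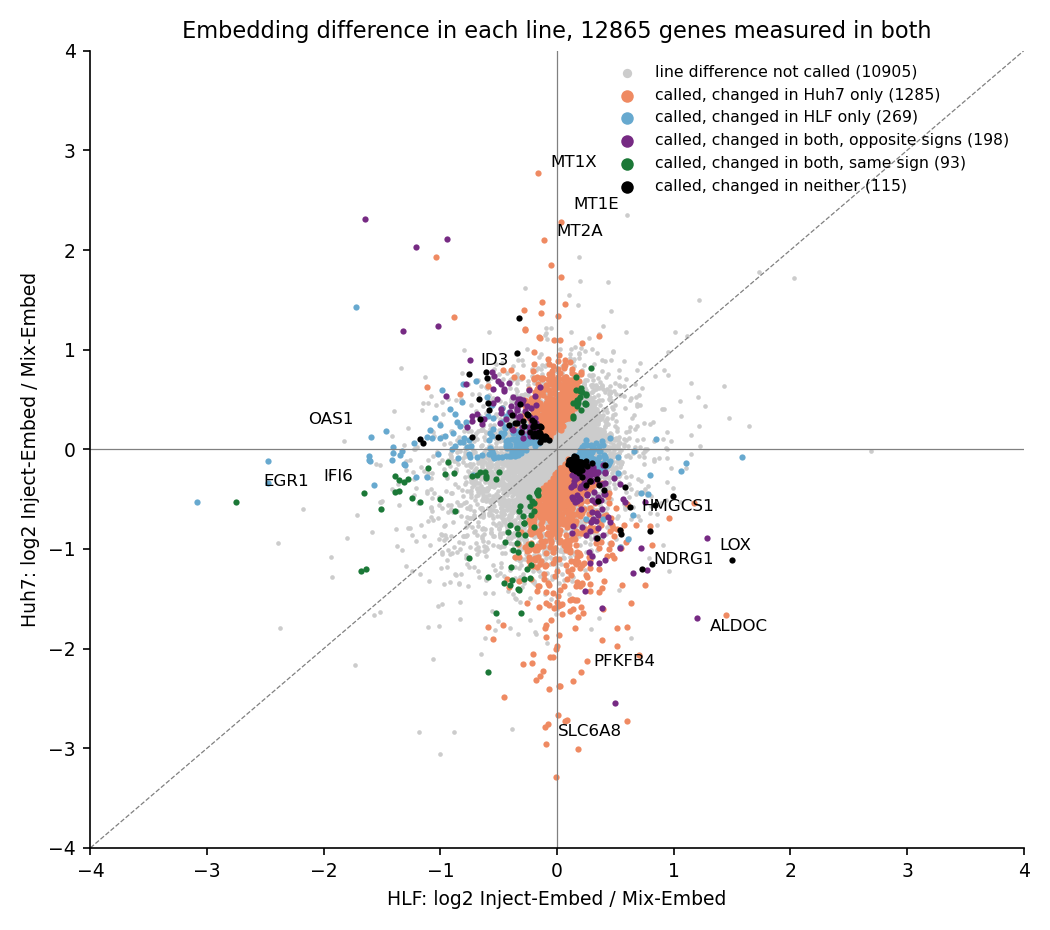
Log2 ratio of Inject-Embed to Mix-Embed in HLF (x axis) and Huh7 (y axis) for 12865 genes with at least 1 CPM in a group of each line, 3 of them outside the axes. Colours give the class of each gene and the dashed line equal change: called genes spread along the vertical axis (Huh7 only, 1285 of those drawn), and the lower right quadrant holds genes that were lower in Inject-Embed in Huh7 and higher in HLF.

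Below, pairs of values are replicates 1 and 2 of a group. Counts of called list members stand beside 4.62% higher and 5.95% lower over all tested genes for the line difference. Within the lines these shares were 9.55% and 13.4% in Huh7, and 3.56% and 4.71% in HLF. Of the 12865 genes measured in both lines, 1960 were called for the line difference. Among protein-coding genes called for the line difference with at least 10 CPM in a group of each line and no overlap between the lines' changes, the 10 lowest line differences by the naming rule included that of SLC6A8, which imports creatine (ENSG00000130821, chromosome X, bases 153688099 to 153696593 of GRCh38). SLC6A8 was at 21.7 and 12.2 CPM in Huh7 Inject-Embed and 116 and 121 in Huh7 Mix-Embed, against 13 and 13.5 in HLF Inject-Embed and 12.6 and 15.9 in HLF Mix-Embed. The libraries of the methods were far apart in Huh7 and overlapped in HLF. The line difference was -2.69 ± 0.20 (log2 ± SE, adjusted p = 2.02e-14 by edgeR's quasi-likelihood test), from -2.79 in Huh7 and -0.10 in HLF. SPAG4, a nuclear envelope protein (-2.40 ± 0.15), the cytokine LIF (-2.10 ± 0.12) and FUT11, a fucosyltransferase (-1.79 ± 0.16), were also among the 10. LIF was at 18.2 and 18.9 CPM in Huh7 Inject-Embed and 85.2 and 88.2 in Huh7 Mix-Embed, against 33.6 and 36.6 in HLF Inject-Embed and 37.1 and 39.4 in HLF Mix-Embed. Each of these was lower in Inject-Embed in Huh7 and not called in HLF.

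At the other end stood metallothioneins and EGR1, a transcription factor of the immediate early response to growth factors (ENSG00000120738, chromosome 5, bases 138465490 to 138469315). EGR1 had 25.1 and 31 CPM in Huh7 Inject-Embed and 28.7 and 32.3 in Huh7 Mix-Embed, which overlap. In HLF it had 14.9 and 13.4 in Inject-Embed and 75.6 and 82.2 in Mix-Embed, so both Mix-Embed libraries stood far above the Inject-Embed ones. The line difference was 2.36 ± 0.15 (adjusted p = 3.86e-16), from -0.12 in Huh7 and -2.48 in HLF. ITGB8, an integrin that activates TGF-beta (1.32 ± 0.25), CTSO, a lysosomal protease (1.21 ± 0.21), and RNF207 (1.16 ± 0.17) had the same pattern, lower in Inject-Embed in HLF and not called in Huh7. EIF3C and EIF3CL also met the rule, but they are near-identical copies whose reads the counting can divide. Their levels differed between replicates (EIF3CL 15.4 and 43.2 CPM in HLF Mix-Embed), and the EIF3CL call was lost without Huh7 Inject-Embed replicate 2 (adjusted p = 0.0959) or HLF Mix-Embed replicate 2 (adjusted p = 0.0508). Both genes are uncertain.

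**Figure D2:**
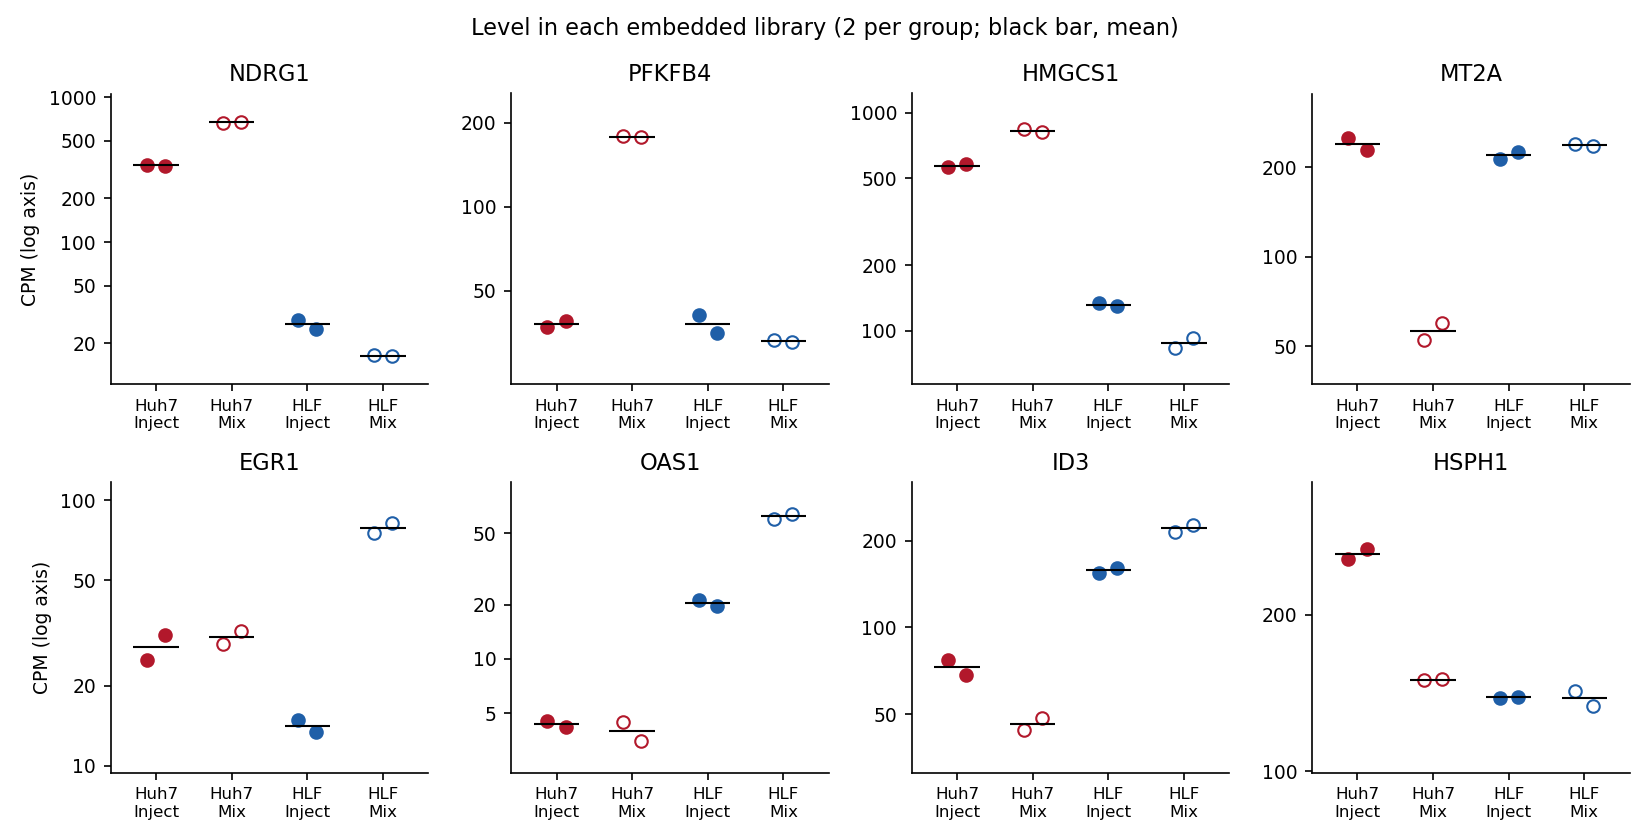
Level of 8 genes in each of the 8 embedded libraries, in CPM on a log axis, with the mean of each group as a black bar. NDRG1, HMGCS1 and ID3 have opposite orders of the methods in the lines, PFKFB4, MT2A and HSPH1 were called in Huh7 and not in HLF, and EGR1 and OAS1 in HLF and not in Huh7.

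Genes of the hypoxia response were lower in Inject-Embed than in Mix-Embed in Huh7, and most were not called in HLF. Of 28 listed genes tested, 21 were called lower for the line difference, with a median of -1.04 against -0.02 over all tested genes. Leaving out 2 members with a group total of at most 3 counts gave -1.08. In Huh7, 24 were lower (median -0.96). In HLF, 4 were higher and 4 lower (median -0.02). The 7 members not called were ADM, ANGPTL4, ANKRD37 and CITED2, and CA9, EGLN3 and CA12, which were near 0 in HLF or in both lines. ADM was called lower without Huh7 Inject-Embed replicate 1 (adjusted p = 0.0487), and CITED2 higher without HLF Inject-Embed replicate 2 or HLF Mix-Embed replicate 1 (adjusted p = 0.028 and 0.0118).

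PFKFB4, which sets the level of a potent activator of glycolysis (ENSG00000114268, chromosome 3, bases 48517684 to 48562015), had 36.9 and 38.8 CPM in Huh7 Inject-Embed and 179.9 and 177 in Mix-Embed, around a 2D mean of 94.3 ± 1.14 (SD, n = 2). In HLF it had 40.9 and 35.2 in Inject-Embed and 33.3 and 32.7 in Mix-Embed, with a 2D mean of 14.1 ± 1.38. The Huh7 methods lay on opposite sides of 2D, whereas both HLF methods lay above it. The lines thus differed by -2.44 ± 0.11 (adjusted p = 4.75e-21). BNIP3, which tags mitochondria for removal, was at 137 and 140.4 CPM in Huh7 Inject-Embed and 426 and 445 in Mix-Embed, and at 237 and 229 in HLF Inject-Embed and 228 and 225 in HLF Mix-Embed. The methods were far apart in Huh7 and nearly equal in HLF, and the line difference was -1.69 ± 0.07 (adjusted p = 9.99e-23). BHLHE40, a repressor of the circadian clock, had 36.5 and 35.3 CPM in Huh7 Inject-Embed and 147 and 152 in Huh7 Mix-Embed, against 56.1 and 56.7 in HLF Inject-Embed and 61.8 and 68.2 in HLF Mix-Embed (-1.85 ± 0.10). DDIT4, an inhibitor of mTORC1 (-1.65 ± 0.12), and PDK1, which keeps pyruvate out of mitochondria (-1.59 ± 0.12), had the same pattern, called in Huh7 alone.

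A few members changed in both lines. NDRG1, a stress-induced differentiation gene, had 342 and 334 CPM in Huh7 Inject-Embed and 663 and 675 in Mix-Embed, but 29.2 and 25.1 in HLF Inject-Embed and 16.6 and 16.4 in HLF Mix-Embed. The higher method was thus Mix-Embed in Huh7 and Inject-Embed in HLF, with a line difference of -1.70 ± 0.10 (adjusted p = 1.39e-17). LOX, a collagen cross-linker (-2.18 ± 0.26), STC2, a secreted glycoprotein (-1.26 ± 0.09), and PFKFB3, a relative of PFKFB4 (-1.11 ± 0.07), were also opposite. LOX stood at only 3.18 and 3.2 CPM in HLF Inject-Embed and 1.43 and 1.19 in HLF Mix-Embed. P4HA1, a collagen hydroxylase, and SLC2A1, the glucose transporter GLUT1, were lower in Inject-Embed in both lines, by more in Huh7 (-1.06 ± 0.08 and -0.58 ± 0.08). VEGFA, the angiogenic factor, had 61 and 51.9 CPM in Huh7 Inject-Embed and 92.3 and 103 in Mix-Embed and was not called in HLF (72.5 and 76.1 in Inject-Embed and 78.5 and 83.9 in Mix-Embed), a line difference of -0.66 ± 0.10. ADM, a vasodilator peptide, was lower in Inject-Embed in both lines (-1.02 ± 0.14 in Huh7 and -0.62 ± 0.09 in HLF), and its line difference was not called (-0.40 ± 0.17, adjusted p = 0.132).

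**Figure D3:**
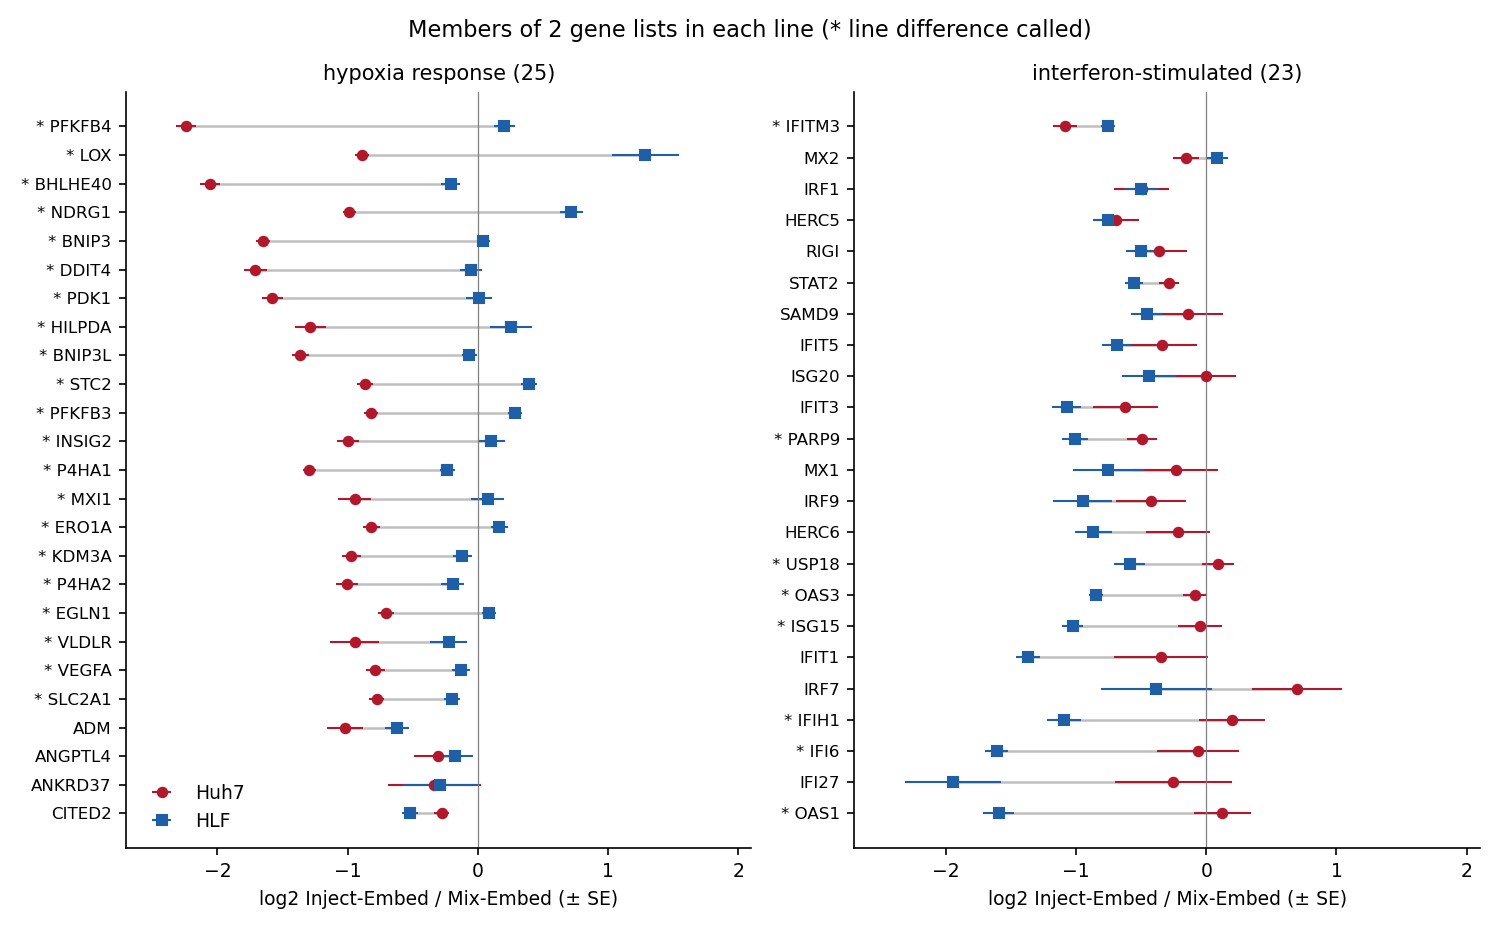
Log2 ratio of Inject-Embed to Mix-Embed (± SE) in Huh7 (circles) and HLF (squares) for members that averaged at least 1 CPM over both methods in each line, 25 of the hypoxia response and 23 of the interferon-stimulated list. Stars mark a called line difference: hypoxia genes separate by a shift of Huh7 to the left, and interferon genes by a shift of HLF to the left.

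Promoter sequences from RefSeq (GRCh38.p14) are shown for 3 members of the hypoxia and glycolysis lists that differed between the lines, since HIF binds the core ACGTG. The 250 bases before the RefSeq start were searched on both strands. Matches that overlap were merged, so that the palindrome CACGTG counts once. They are printed 5′ to 3′ on the gene's strand with matches in capitals, cut to the bases before the gene's start in the deposited table.
BNIP3 chr10:131982014-131982173, minus strand: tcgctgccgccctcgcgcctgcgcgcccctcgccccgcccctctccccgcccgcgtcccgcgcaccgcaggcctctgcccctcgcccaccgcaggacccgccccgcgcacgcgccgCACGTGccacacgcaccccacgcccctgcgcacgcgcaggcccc
DDIT4 chr10:72273674-72273919, plus strand: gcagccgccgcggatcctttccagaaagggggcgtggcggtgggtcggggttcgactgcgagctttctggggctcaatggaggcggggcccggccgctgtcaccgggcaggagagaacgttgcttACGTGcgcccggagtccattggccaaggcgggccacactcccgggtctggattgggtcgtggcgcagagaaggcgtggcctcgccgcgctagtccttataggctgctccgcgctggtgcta
LDHA chr11:18394313-18394387, plus strand: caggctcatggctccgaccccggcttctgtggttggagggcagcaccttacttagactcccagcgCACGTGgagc
The core was present in 12 of the 24 hypoxia members with a promoter in the table (50.0%), 8 of 17 glycolysis members (47.1%) and 6501 of all 35116 promoters (18.5%). Of the 17 hypoxia members called lower with a promoter, 8 held it (47.1%). PFKFB4 had no match and BHLHE40 had 3 in this window. A match is a description of the letters and not a binding site.

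Glycolysis genes differed in the same direction. Of 18 tested, 15 were called lower for the line difference (median -0.76). In Huh7, 16 were lower in Inject-Embed, and in HLF 8 were higher and 1 lower, so that 7 genes were opposite. PGK1, phosphoglycerate kinase, had 279.9 and 282 CPM in Huh7 Inject-Embed and 664 and 679 in Mix-Embed, and 577 and 587 in HLF Inject-Embed and 546 and 526 in HLF Mix-Embed. The methods did not overlap in either line, but the HLF change was small and not called (0.12 ± 0.04), and the line difference was -1.38 ± 0.06 (adjusted p = 1.1e-21). LDHA, which makes lactate, had 973 and 1027 CPM in Huh7 Inject-Embed and 1832 and 1757 in Huh7 Mix-Embed, against 1964 and 1973 in HLF Inject-Embed and 1844 and 1759 in HLF Mix-Embed. It was opposite in the lines by a small HLF change (0.13 ± 0.04), with a line difference of -0.97 ± 0.05. PKM, pyruvate kinase (-0.90 ± 0.05), GAPDH (-0.69 ± 0.05), PGAM1 (-0.68 ± 0.06), TPI1 (-0.63 ± 0.06) and GPI (-0.60 ± 0.06) behaved like LDHA, with HLF changes from 0.13 to 0.17. ENO1, enolase, was called in Huh7 alone (-0.83 ± 0.05). ALDOC, a brain-type aldolase, had 40.4 and 42.8 CPM in Huh7 Inject-Embed and 138 and 131 in Mix-Embed, and the opposite order at low level in HLF (2.53 and 2.32 in Inject-Embed and 1.02 and 1.07 in Mix-Embed), a line difference of -2.90 ± 0.28. PFKM, ALDOA and PFKP were not called.

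In cholesterol synthesis the lines changed in opposite directions. Of 25 genes tested, 22 were called lower for the line difference, with a median of -0.67. In Huh7, 22 were lower in Inject-Embed (median -0.37) and in HLF 18 were higher (median 0.36), and 16 genes were opposite. These counts compare with 199 opposite genes among all 19342 tested.

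HMGCS1, an early enzyme of the pathway (ENSG00000112972, chromosome 5, bases 43289395 to 43313512), had 566 and 579 CPM in Huh7 Inject-Embed and 839 and 815 in Mix-Embed. In HLF it had 134 and 129.8 in Inject-Embed and 82.9 and 92.7 in Mix-Embed. No libraries overlapped, and the higher method was Mix-Embed in Huh7 and Inject-Embed in HLF. The line difference was -1.11 ± 0.07 (adjusted p = 3.86e-16), from -0.53 ± 0.05 in Huh7 and 0.58 ± 0.05 in HLF. In 2D it averaged 1086 ± 50.9 CPM in Huh7 and 72.1 ± 3.6 in HLF (SD, n = 2), so that the Huh7 embedded levels were both below 2D and the HLF ones both above it. FDPS, which makes farnesyl diphosphate, had 133 and 134 CPM in Huh7 Inject-Embed and 219 and 207 in Huh7 Mix-Embed, against 106 and 100.5 in HLF Inject-Embed and 77.8 and 74.3 in HLF Mix-Embed (-1.11 ± 0.08). Its groups did not overlap in either line.

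The opposite pattern ran through the pathway. It held for ACAT2, which makes acetoacetyl-CoA (-0.78 ± 0.07), MVD and MVK in the mevalonate arm (-1.07 ± 0.08 and -0.56 ± 0.10), IDI1 (-0.71 ± 0.09), FDFT1 and SQLE, which make and oxidise squalene (-0.89 ± 0.06 and -0.85 ± 0.07), LSS, which closes the sterol ring (-0.73 ± 0.07), and the later enzymes MSMO1 (-0.98 ± 0.07), HSD17B7 (-1.53 ± 0.15), EBP (-0.64 ± 0.08), SC5D (-0.58 ± 0.09) and DHCR7 (-0.62 ± 0.06). INSIG1, which holds SREBP in the endoplasmic reticulum and is itself a target of SREBP, was opposite too (-1.02 ± 0.08). SREBF2, which encodes SREBP2 (-0.42 ± 0.07), and the sterol carrier STARD4 (-0.60 ± 0.08) were called in Huh7 alone. PMVK and TM7SF2 were not called.

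Fatty acid genes differed in one direction as well, mostly from Huh7. Of 21 tested in the list of fatty acid synthesis and lipid droplets, 12 were called lower (median -0.46), with 15 lower and 1 higher in Huh7 and 4 higher and 1 lower in HLF. SCD, the desaturase that makes oleate, had 2270 and 2286 CPM in Huh7 Inject-Embed and 3129 and 3069 in Mix-Embed, and 1575 and 1556 in HLF Inject-Embed and 1186 and 1172 in HLF Mix-Embed. The order of the methods was opposite with no overlap (-0.85 ± 0.05, adjusted p = 6.25e-18). FADS1 and FADS2, desaturases of polyunsaturated fatty acids, were called lower in Inject-Embed in Huh7 alone, with a line difference of -1.04 ± 0.10 for FADS2, as was PLIN2, a coat protein of lipid droplets (-0.82 ± 0.08). FADS1 had 316 and 309.7 CPM in Huh7 Inject-Embed and 603 and 577 in Huh7 Mix-Embed, against 347 and 365 in HLF Inject-Embed and 345 and 325 in HLF Mix-Embed, where the groups were close and not called (changes of -0.91 ± 0.05 in Huh7 and 0.09 ± 0.04 in HLF). SREBF1, the regulator of fatty acid genes, was lower in Inject-Embed in both lines, and its line difference was 0.04 ± 0.08 (adjusted p = 0.865).

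**Figure D4:**
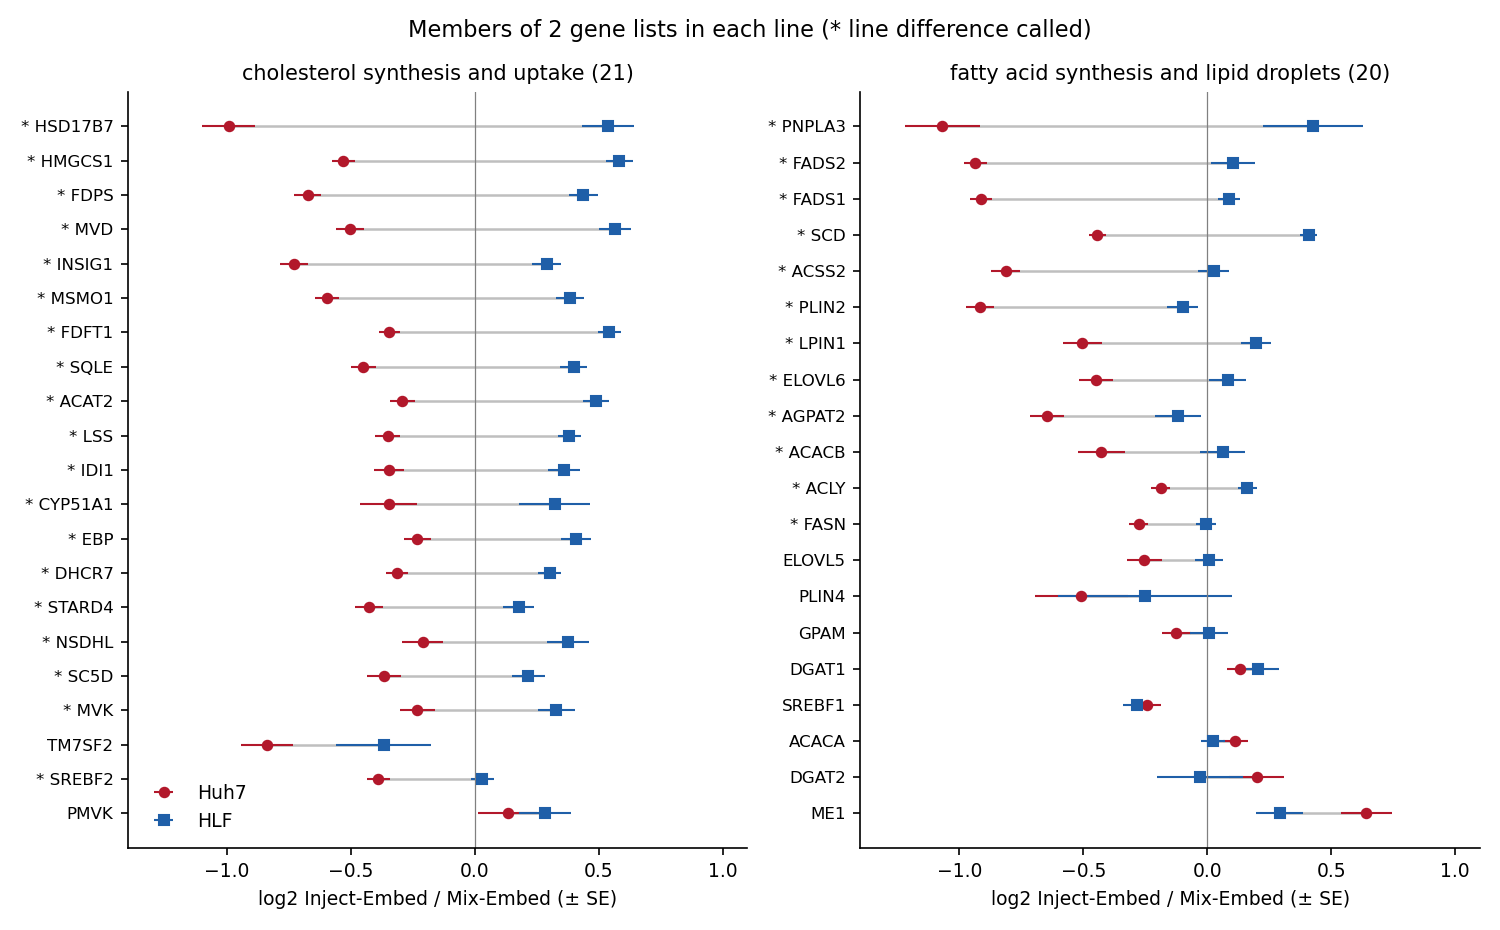
Log2 ratio of Inject-Embed to Mix-Embed (± SE) in Huh7 (circles) and HLF (squares) for 21 genes of cholesterol synthesis and uptake and 20 of fatty acid synthesis and lipid droplets that averaged at least 1 CPM over both methods in each line. Most cholesterol genes lie left of 0 in Huh7 and right of 0 in HLF, from HMGCS1 to MVK, while fatty acid genes such as FADS1 lie left of 0 in Huh7 and near 0 in HLF.

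Messages for the ribosome itself and for the factors that build it differed in opposite directions. Of 40 cytosolic ribosomal proteins, 35 were called lower for the line difference (median -0.34), with 36 lower in Inject-Embed in Huh7 and 20 higher in HLF. RPL5, which also carries 5S RNA, had 1160 and 1255 CPM in Huh7 Inject-Embed and 1529 and 1527 in Mix-Embed, and 721 and 716 in HLF Inject-Embed and 621 and 606 in HLF Mix-Embed, an opposite order without overlap (-0.57 ± 0.06, adjusted p = 1.62e-10). The differences were small: none of the 40 reached 1 log2 unit, and 9 passed edgeR's test against a 1.2-fold change. With limma on log2(FPKM + 1) and log2(FPKM + 0.1), 23 and 21 of the 40 were called lower.

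Of 25 ribosome biogenesis genes, 17 were called higher and 2 lower (median 0.39), with 20 higher in Inject-Embed in Huh7 and 6 in HLF. RRP12, which exports ribosome subunits from the nucleus, had 53.7 and 58.7 CPM in Huh7 Inject-Embed and 33.6 and 32.3 in Mix-Embed, and 89.4 and 88.1 in HLF Inject-Embed and 86.2 and 88.5 in HLF Mix-Embed. The methods separated in Huh7 and overlapped in HLF (0.74 ± 0.10, adjusted p = 8.73e-07). UTP20 of the processome (0.60 ± 0.08) and POLR1A, the large subunit of RNA polymerase I (0.46 ± 0.08), followed the same pattern. The exceptions were NPM1, a nucleolar chaperone (-0.25 ± 0.05), and FBL, which methylates ribosomal RNA (-0.29 ± 0.08), both higher in Inject-Embed in HLF and not called in Huh7. The FBL call was lost without Huh7 Inject-Embed replicate 2, HLF Inject-Embed replicate 2 or HLF Mix-Embed replicate 1 (adjusted p = 0.157, 0.194 and 0.264), and the NPM1 call without HLF Inject-Embed replicate 1 (adjusted p = 0.0648). MYC, a driver of ribosome synthesis, had 190.3 and 183 CPM in Huh7 Inject-Embed and 148 and 155 in Mix-Embed, with 86.3 and 83.5 in HLF Inject-Embed and 87.2 and 91.1 in HLF Mix-Embed (0.37 ± 0.08, adjusted p = 0.002).

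Many chaperone genes were higher in Inject-Embed in Huh7. Of 17 cytosolic heat shock genes, 8 were called higher for the line difference (median 0.28), with 11 higher and 1 lower in Huh7 and 4 higher in HLF. HSPH1, an HSP70 partner that pulls proteins from aggregates, had 256 and 267 CPM in Huh7 Inject-Embed and 149 and 151 in Mix-Embed, against 138 and 139 in HLF Inject-Embed and 142 and 134 in HLF Mix-Embed. The Huh7 groups were apart and the HLF groups overlapped (0.79 ± 0.08, adjusted p = 9.46e-11). HSP90AA1, the inducible HSP90, was higher in Inject-Embed in both lines, by more in Huh7 (0.56 ± 0.05). HSPA1A shares reads with a near-identical copy, so its call (0.62 ± 0.12) is uncertain. Among 20 targets of NRF2, the regulator of antioxidant genes, 6 were called higher and 1 lower (median 0.16), or 3 higher without Huh7 Mix-Embed replicate 2. GCLM, a subunit of the enzyme that starts glutathione synthesis, had 72.9 and 78 CPM in Huh7 Inject-Embed and 43.6 and 45.8 in Mix-Embed, and overlapped in HLF (74.8 and 82.6 in Inject-Embed and 84.7 and 80.6 in Mix-Embed; line difference 0.82 ± 0.10). HMOX1, heme oxygenase, was not called (0.00 ± 0.17).

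Responses to unfolded proteins and to amino acid shortage were mixed. In the unfolded protein list, 5 of 20 were called higher and 1 lower (median 0.07), beside 4.62% and 5.95% of all tested genes. HYOU1, a chaperone of the endoplasmic reticulum, had 277 and 261 CPM in Huh7 Inject-Embed and 205 and 206 in Mix-Embed, and overlapped in HLF (360.0 and 353 in Inject-Embed and 354 and 382 in Mix-Embed; line difference 0.44 ± 0.07, adjusted p = 8.92e-06). XBP1, a regulator of this response, was the one lower (-0.30 ± 0.07), and its call was lost without HLF Inject-Embed replicate 1 (adjusted p = 0.0555). In the list of ATF4 targets and the amino acid response, 8 of 22 were called lower and 2 higher (median -0.25). The 8 became 5 without either Huh7 Inject-Embed library or without HLF Inject-Embed replicate 2, and 4 without HLF Mix-Embed replicate 2. They were also 5 when scaled by library totals alone, in the 8 embedded libraries alone, with DESeq2 and with limma at either pseudocount, and 3 in the test against a 1.2-fold change. TRIB3, a pseudokinase induced by stress, had 21 and 20.1 CPM in Huh7 Inject-Embed and 37.1 and 42.2 in Mix-Embed, and 25 and 28.7 in HLF Inject-Embed and 27.6 and 28 in HLF Mix-Embed, which overlapped (-0.89 ± 0.15, adjusted p = 2.11e-05). SHMT2 and PHGDH, enzymes of serine and glycine metabolism, gave -0.50 ± 0.08 and -0.41 ± 0.07, and SLC3A2, a subunit of amino acid transporters, was higher (0.42 ± 0.08).

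**Figure D5:**
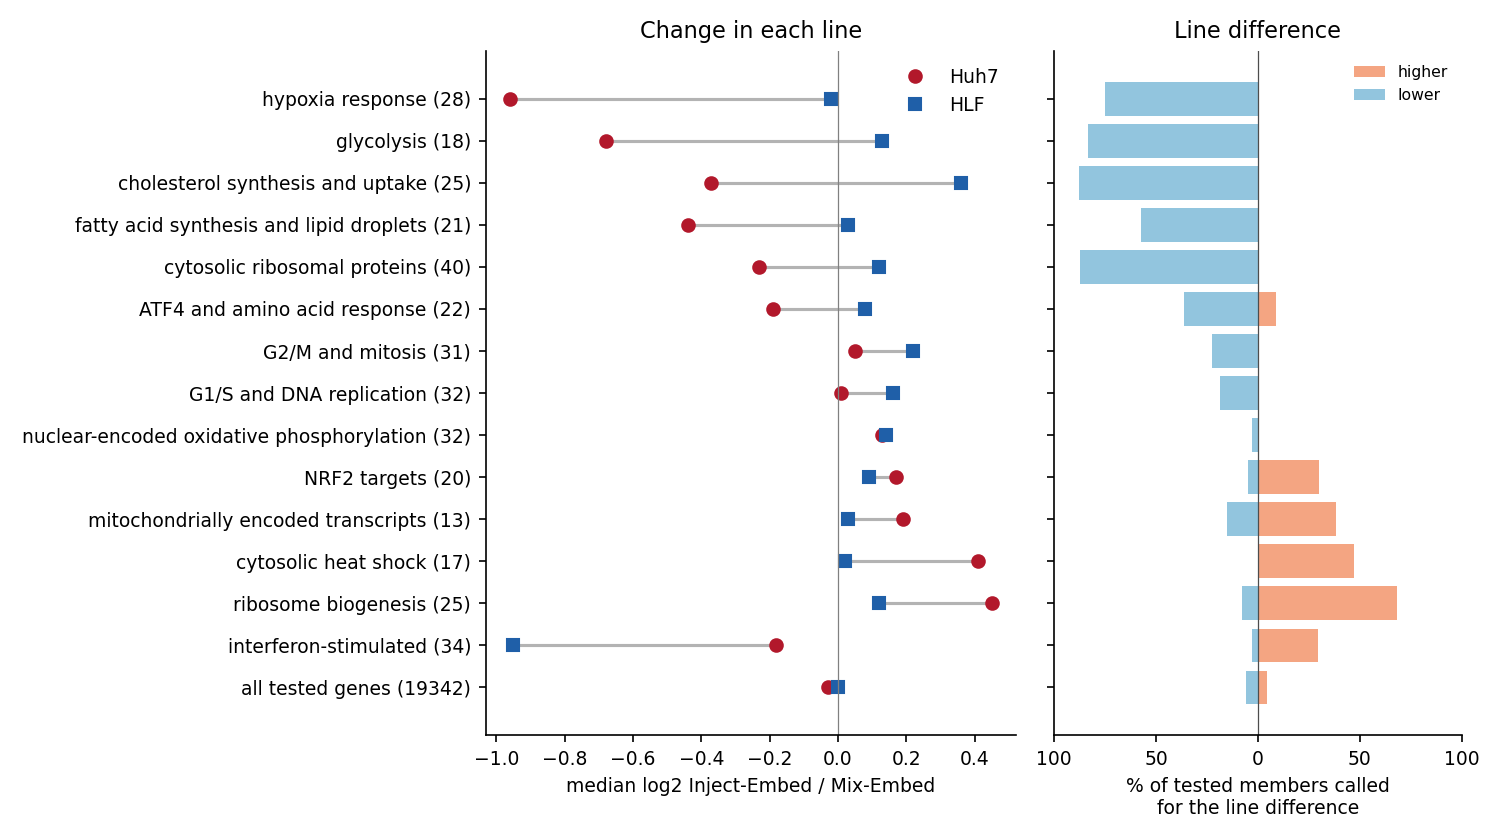
Median log2 ratio of Inject-Embed to Mix-Embed of the tested members of 14 gene lists and of all tested genes in Huh7 (circles) and HLF (squares), with the number tested in brackets (left), and the percentage of tested members called higher or lower for the line difference (right). Cholesterol synthesis has medians of -0.37 in Huh7 and 0.36 in HLF, and all tested genes have -0.03 and 0.

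Metallothioneins, small proteins that bind zinc and copper, were higher in Inject-Embed in Huh7, and those detected in HLF were not called there. Of 17 genes in the metal list, 11 were higher and 2 lower in Inject-Embed in Huh7, while 1 was higher in HLF (TFRC, the transferrin receptor). For the line difference 4 were called higher and 2 lower. The median line difference was 1.44 over the list, and 0.65 over the members whose group totals all passed 3 counts, which leaves out 7. MT1A, MT1F, MT1G, MT1H and MT1M had no counts in any embedded HLF library, so no line difference can be given for them. With limma on log2(FPKM + 1) and log2(FPKM + 0.1), in which a gene at 0 in HLF has a change of 0 there, 11 and 8 were called higher.

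MT2A (ENSG00000125148, chromosome 16, bases 56608199 to 56609497) had 252 and 229 CPM in Huh7 Inject-Embed and 52.4 and 60.1 in Mix-Embed. In HLF it had 214 and 226 in Inject-Embed and 240.0 and 236 in Mix-Embed. The Huh7 Inject-Embed libraries overlapped the HLF range, and the Huh7 Mix-Embed libraries lay below it and above a Huh7 2D mean of 0.838 ± 0.243 (SD, n = 2). The line difference was 2.21 ± 0.09 (adjusted p = 2.16e-23). MT1E had 132 and 137 CPM in Huh7 Inject-Embed and 27 and 28.2 in Huh7 Mix-Embed, against 56.4 and 58.6 in HLF Inject-Embed and 58.3 and 54.2 in HLF Mix-Embed, where the methods overlapped (2.25 ± 0.13, adjusted p = 6.25e-18). With limma on log2(FPKM + 0.1) the MT1E call was lost (2.31, adjusted p = 0.12). MT1X, at 22.6 and 18.2 CPM in Huh7 Inject-Embed and 2.44 and 3.58 in Huh7 Mix-Embed, against 3.83 and 3.89 in HLF Inject-Embed and 3.55 and 5.05 in HLF Mix-Embed, gave 2.94 ± 0.34. Of the genes without HLF counts, MT1G was at 152 and 162 CPM in Huh7 Inject-Embed and 24.8 and 23.2 in Mix-Embed, and MT1F at 77.9 and 80.6 in Inject-Embed and 24 and 25.2 in Mix-Embed. Reads of these close relatives can be divided between copies by the counting.

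Zinc transporters and TFRC also differed. SLC30A1, which exports zinc and is a target of MTF1, had 102 and 111 CPM in Huh7 Inject-Embed and 56.5 and 53.5 in Mix-Embed, and overlapped in HLF (76.3 and 72.3 in Inject-Embed and 77.2 and 70.0 in Mix-Embed; line difference 0.93 ± 0.10, adjusted p = 3.53e-09). SLC39A10, which imports zinc, had 21.7 and 26.3 CPM in Huh7 Inject-Embed and 55 and 48.6 in Huh7 Mix-Embed and was lower there in Inject-Embed (-1.24 ± 0.12). TFRC, the transferrin receptor, was lower in Inject-Embed in Huh7 and higher in HLF (-0.60 ± 0.07). MTF1 itself was not called (0.37 ± 0.15).

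The promoter of MT1X is shown because MTF1 binds metal response elements, whose core is TGCACNC or TGCGCNC. The 250 bases before the RefSeq start (GRCh38.p14) were searched on both strands, and the sequence is printed as above with matches in capitals.
MT1X chr16:56682220-56682423, plus strand: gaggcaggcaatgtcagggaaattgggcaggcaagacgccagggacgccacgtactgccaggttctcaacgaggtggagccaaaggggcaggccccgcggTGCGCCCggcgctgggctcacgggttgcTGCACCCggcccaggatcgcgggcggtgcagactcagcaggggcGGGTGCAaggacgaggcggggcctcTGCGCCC
MT1X had 4 matches and MT2A 7 in the window. A match was found in 5 of the 8 members of the metal list with a promoter in the table (62.5%), and in 8719 of 35116 promoters (24.8%). It was found in 3 of the 3 members called higher and in 1 of the 2 called lower. MT1E, MT1F and MT1G were not in that table.

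Interferon-stimulated genes differed between the methods mainly in HLF. Of 34 tested, 30 were lower in Inject-Embed in HLF (median -0.95), and 5 were lower in Huh7 (median -0.18). Summed over the list, HLF Inject-Embed had 1473 and 1458 CPM and HLF Mix-Embed 2878 and 2819, and the Huh7 libraries had 288.7 to 341.1. For the line difference, 10 were called higher and 1 lower. The list median was 0.66, and 0.52 when 8 members with a group total of at most 3 counts were left out. Without Huh7 Inject-Embed replicate 2, 6 were called higher, and with limma on log2(FPKM + 1) 23 were. Many of these genes stood at a few CPM in Huh7, which limits the contrast.

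OAS1, a sensor of double-stranded RNA (ENSG00000089127, chromosome 12, bases 112906777 to 112933222), had 21.3 and 19.8 CPM in HLF Inject-Embed and 60.0 and 64 in Mix-Embed. In Huh7 it had 4.54 and 4.17 in Inject-Embed and 4.46 and 3.5 in Mix-Embed. The HLF libraries of the methods were far apart, and the Huh7 ones overlapped and were not called. The lines differed by 1.72 ± 0.25 (adjusted p = 2.33e-06). The HLF 2D mean was 8.76 ± 1.78 CPM (SD, n = 2). OAS3, of the same family, had 226 and 221 in HLF Inject-Embed and 396 and 408 in HLF Mix-Embed and 23.2 and 24.9 in Huh7 Inject-Embed and 26.8 and 24 in Huh7 Mix-Embed, where the libraries overlapped (0.76 ± 0.10). IFI6 (1.54 ± 0.34), IFIH1, the RNA sensor MDA5 (1.29 ± 0.29), and ISG15, a ubiquitin-like modifier (0.97 ± 0.19), were also lower in Inject-Embed in HLF and not called in Huh7. The IFI6 call was lost without Huh7 Inject-Embed replicate 2 (adjusted p = 0.476).

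Other members changed in the same direction in both lines. IFITM3, which blocks entry of viruses, was lower in Inject-Embed in Huh7 (15.9 and 13.9 against 31.9 and 31.7 CPM) and in HLF (222 and 215 against 369.6 and 368). It was the member called lower (-0.33 ± 0.11, adjusted p = 0.0373), and the call was lost without any 1 of the embedded libraries other than Huh7 Inject-Embed replicate 1 (adjusted p from 0.0874 to 0.265). HERC5, a ligase of ISG15, was lower in Inject-Embed in both lines (-0.69 ± 0.17 in Huh7 and -0.76 ± 0.11 in HLF), with a line difference of 0.07 ± 0.21 (adjusted p = 0.954). IFI44L had 52.6 and 53.1 CPM in HLF Inject-Embed and 178 and 183 in Mix-Embed, but at most 0.209 CPM in embedded Huh7, and its line difference was not called (0.65 ± 1.53). The 6 markers of macrophages and leukocytes summed to 4.29 to 5.49 CPM in HLF Inject-Embed and 7.53 to 8.8 in HLF Mix-Embed, with PTPRC, MARCO and CD163 at 0 in both, and their part in these values was not tested. Among 16 genes of antigen presentation, 12 were lower in Inject-Embed in HLF and 6 in Huh7, and 1 was called for the line difference, B2M, the light chain of MHC class I (0.42 ± 0.07).

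Targets of TGF-beta and BMP did not move as a group: of 23 tested, 5 were called higher and 5 lower (median -0.19). Of the ID genes, inhibitors of differentiation and BMP targets, ID1, ID3 and ID4 were called higher and ID2 lower. ID3 had 77.3 and 68.4 CPM in Huh7 Inject-Embed and 44.1 and 48.5 in Mix-Embed, with 155 and 162 in HLF Inject-Embed and 215 and 227 in HLF Mix-Embed, an opposite order without overlap (1.14 ± 0.09, adjusted p = 1.13e-12). ID4 had 15.9 and 13.6 CPM in Huh7 Inject-Embed and 5.29 and 8.48 in Huh7 Mix-Embed and was not called in HLF (1.26 ± 0.16). ID1 was lower in Inject-Embed in HLF alone (0.33 ± 0.08). The ID2 call (-0.31 ± 0.08) was lost without HLF Inject-Embed replicate 1 or 2, HLF Mix-Embed replicate 2 or Huh7 Mix-Embed replicate 2 (adjusted p from 0.0511 to 0.0738).

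Of 23 immediate early genes, 4 were called higher and 1 lower (median 0.03), beside 4.62% and 5.95% of all tested genes. Besides EGR1 these were PHLDA1, opposite in the lines (0.81 ± 0.10), DUSP5, a phosphatase that restrains ERK (0.52 ± 0.11), MYC, and ATF3, the one called lower (-0.87 ± 0.23), whose call was lost without Huh7 Inject-Embed replicate 2 or HLF Mix-Embed replicate 2 (adjusted p = 0.0532 and 0.0596). FOS was not among them: it was lower in Inject-Embed in both lines, at 2.42 and 2.72 against 10.7 and 12.3 CPM in Huh7 and 5.51 and 6.96 against 19.8 and 21.6 in HLF, and its line difference was -0.43 ± 0.29 (adjusted p = 0.407). CCN2, a target of YAP, had 22.5 and 20.1 CPM in HLF Inject-Embed and 37.9 and 35.2 in Mix-Embed and overlapped in Huh7 (30.2 and 36 in Inject-Embed and 29.8 and 35.5 in Mix-Embed), a line difference of 0.79 ± 0.15. In the list of YAP and TEAD targets, 4 of 23 were called higher and 3 lower, beside the same shares of all tested genes.

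Among the 199 genes with opposite changes, those higher for the line difference included ALDH1A1, CHST3 and SERPINH1. ALDH1A1, which makes retinoic acid, had 2558 and 2607 CPM in Huh7 Inject-Embed and 1721 and 1680 in Mix-Embed, and 179 and 177 in HLF Inject-Embed and 256 and 232 in HLF Mix-Embed. The higher method was Inject-Embed in Huh7 and Mix-Embed in HLF (1.06 ± 0.06, adjusted p = 7.8e-18). SERPINH1, a collagen chaperone, had 319 and 313 CPM in Huh7 Inject-Embed and 229 and 239 in Huh7 Mix-Embed, against 272 and 299.5 in HLF Inject-Embed and 375 and 378 in HLF Mix-Embed (0.83 ± 0.07), and CHST3, which sulphates chondroitin, gave 1.01 ± 0.11. CPOX, an enzyme of heme synthesis, was opposite in the lower direction, at 128 and 129 CPM in Huh7 Inject-Embed and 217 and 208 in Huh7 Mix-Embed, against 66.7 and 66.9 in HLF Inject-Embed and 50.1 and 47.8 in HLF Mix-Embed (-1.18 ± 0.09). The 199 became 117 and 110 without HLF Inject-Embed replicate 1 or 2, and 123 without HLF Mix-Embed replicate 2. The test against a 1.2-fold change left 13.

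Proteins of the cell surface, the skeleton and the lysosome also held opposite changes. CAV1, the coat protein of caveolae, had 18.1 and 15.3 CPM in Huh7 Inject-Embed and 24.8 and 23.4 in Mix-Embed, and 367 and 358 in HLF Inject-Embed and 305 and 275 in HLF Mix-Embed, in opposite order without overlap (-0.85 ± 0.11, adjusted p = 2.52e-07). JAG1, a ligand of Notch, was opposite the other way, at 232 and 219 against 178 and 178 CPM in Huh7 and 103 and 103 against 135 and 130.3 in HLF (0.71 ± 0.08). SQSTM1, the autophagy receptor p62 (0.64 ± 0.08), and CTSA, a lysosomal carboxypeptidase (0.62 ± 0.07), followed JAG1, and ACTG1, a cytoplasmic actin, followed CAV1 (-0.40 ± 0.05). As lists these were divided: 4 higher and 4 lower of 25 for lysosome and autophagy, 2 and 5 of 20 for integrins and focal adhesion, 2 and 4 of 25 for actin and contractility, and 1 and 3 of 17 for Notch. H2AC6, a histone H2A gene, had 38.9 and 36.4 CPM in Huh7 Inject-Embed and 27.6 and 25.3 in Mix-Embed, and 58 and 59.1 in HLF Inject-Embed and 85.5 and 81.7 in HLF Mix-Embed (1.02 ± 0.12). Of 18 histone genes 3 were called higher and 1 lower. Over all tested genes, 4.62% were called higher and 5.95% lower, which the counts of all these lists stand beside.

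Cell cycle genes differed by small amounts. Of 31 genes of G2/M and mitosis, 22 were higher in Inject-Embed in HLF and 10 in Huh7, and 7 were called lower for the line difference (median -0.12). TOP2A, which untangles DNA, had 796 and 821 CPM in Huh7 Inject-Embed and 845 and 835 in Mix-Embed, and 940.1 and 935 in HLF Inject-Embed and 819.6 and 787 in HLF Mix-Embed, a line difference of -0.28 ± 0.06 (adjusted p = 0.000421). The count of 7 became 3 without Huh7 Mix-Embed replicate 1 or HLF Inject-Embed replicate 2, and 4 without HLF Inject-Embed replicate 1 or HLF Mix-Embed replicate 2. It was also 4 when scaled by library totals alone, and 4 and 3 with limma on log2(FPKM + 1) and log2(FPKM + 0.1). MKI67, a marker of cycling cells, was not called (0.10 ± 0.06, adjusted p = 0.359). In the list of G1/S and DNA replication 6 of 32 were called lower, among them CDT1, which licenses origins (-0.82 ± 0.10), and TK1, which salvages thymidine (-0.47 ± 0.08). Over all tested genes 5.95% were called lower.

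Secreted proteins of hepatocytes were mostly lower in Inject-Embed within Huh7, and many were near 0 in HLF. Of 30 tested, 21 were lower and 3 higher in Huh7 (median -0.43), and 7 were lower in HLF (median -0.58). For the line difference 6 were called higher and 1 lower (median 0.16), and 15 of the 30 had a group total of at most 3 counts. Of 20 hepatocyte transcription factors, 7 were lower in Inject-Embed in Huh7 and 3 in HLF. For the line difference 2 of the 20 were called, both higher, beside 10.6% of all tested genes called in either direction. ALB, albumin, was among the 3 secreted proteins that were higher in Huh7, against the direction of its list. It had 1128 and 1209 CPM in Huh7 Inject-Embed and 672 and 649.9 in Mix-Embed (0.82 ± 0.05, adjusted p = 5.49e-17) but a single count in the embedded HLF libraries. CDH1, E-cadherin, was lower in Inject-Embed in both (87.3 and 90.9 against 163 and 166 CPM in Huh7, 0.973 and 1.38 against 2.66 and 1.96 in HLF), and its line difference was 0.06 ± 0.27 (adjusted p = 0.988). VIM, vimentin, had 44.3 and 41.9 CPM in Huh7 Inject-Embed and 60.5 and 61.9 in Mix-Embed, and 752 and 754 in HLF Inject-Embed and 639 and 584 in HLF Mix-Embed, which is an opposite order without overlap (-0.80 ± 0.08, adjusted p = 6.76e-10). CD44 was not called (0.45 ± 0.18). The fibrinogen chains FGB and FGG, blood proteins of the liver, were called higher (0.77 ± 0.08 and 1.07 ± 0.10): FGB had 28.3 and 24.6 CPM in HLF Inject-Embed and 46.7 and 41.8 in Mix-Embed, and overlapped in Huh7 (909 and 932 in Inject-Embed and 924 and 877 in Mix-Embed).

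In the matrix lists, 2 of 18 basement membrane genes were called higher and 3 lower, as were 3 and 6 of 30 fibrillar collagens and matrix glycoproteins. The shares over all tested genes were 4.62% higher and 5.95% lower. AGRN, agrin, was lower in Inject-Embed in both lines, by more in Huh7 (165 and 154 against 295 and 317 CPM in Huh7, 783 and 794 against 946 and 1055 in HLF), a line difference of -0.60 ± 0.08. LAMB1, a laminin chain, was lower in Inject-Embed in HLF (704 and 696 against 853 and 862 CPM) and higher in Huh7 (447 and 449 against 431 and 396) (0.41 ± 0.06). Of 32 nuclear-encoded subunits of oxidative phosphorylation, 10 were higher in Inject-Embed in Huh7 and 8 in HLF, and 1 was called for the line difference, UQCRC1 (-0.27 ± 0.07), a call lost without HLF Inject-Embed replicate 1 or 2 or HLF Mix-Embed replicate 1 (adjusted p = 0.0646, 0.124 and 0.156). Of the 13 messages of the mitochondrial genome, 5 were called higher and 2 lower. MT-ND2, a subunit of complex I, had 3329 and 3373 CPM in Huh7 Inject-Embed and 2166 and 2117 in Mix-Embed, and 1336 and 1293 in HLF Inject-Embed and 1368 and 1423 in HLF Mix-Embed (0.73 ± 0.05). MT-CO2, a subunit of complex IV from the same genome, went the other way (-0.35 ± 0.05). The share of mitochondrial ribosomal RNA given above moved with the method beside these values.

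The 84 called genes that 1 line expressed at under 1 CPM rest on few counts in that line. SERPIND1, the liver protein heparin cofactor II, had 194 and 194 CPM in Huh7 Inject-Embed and 386 and 381 in Mix-Embed, against 0.778 and 0.439 in HLF Inject-Embed and 0.137 and 0.356 in HLF Mix-Embed (-2.21 ± 0.52, adjusted p = 0.00265). Its call was lost without HLF Inject-Embed replicate 1 or HLF Mix-Embed replicate 1 (adjusted p = 0.171 and 0.0638). SPP1, osteopontin, had 53.8 and 54.6 CPM in HLF Inject-Embed and 48.2 and 45.2 in HLF Mix-Embed, while in Huh7 it had 0.984 and 0.255 in Inject-Embed and no counts in Mix-Embed. Its call was lost without Huh7 Inject-Embed replicate 1 (adjusted p = 0.119).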

How the data were processed

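Poly-A RNA was sequenced on a NovaSeq 6000 in paired reads of 150 bases, per the labels' protocols. The submitters' processing notes name FastQC, Trimmomatic, STAR 2.7.9a, featureCounts and GRCh38 (hg38), and for the annotation release and strand setting the entry is not given in the sources used here. Whole read counts per gene were deposited by the authors and tested. Deposited FPKM values were used only for the alternatives on a log2 scale. The deposited FPKM values matched those recomputed from the counts and gene lengths within a relative 1e-06 for 167453 of 167453 values with at least 20 counts.

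Counts of all 12 libraries were fitted with edgeR 4.0.16 (R 4.3.3), with TMM scaling, a filter on low counts (filterByExpr, minimum count 10), 1 mean per group and the quasi-likelihood test, which left 6 residual degrees of freedom. To these the test added a median of 36.3 prior degrees of freedom, taken from the spread across genes. The p-values thus rest on this shared spread as well as on each gene's own replicates. P-values were adjusted over all 19342 tested genes by the Benjamini-Hochberg method, and genes under 0.05 were called. Standard errors are the log2 difference divided by the square root of F. CPM uses TMM-scaled library totals. A gene was put in a class by its calls within the lines, and a promoter was searched in the RefSeq table. Scripts were tested on simulated data. In the embedded libraries 3 counts, the floor for a count of 0, came to 0.178 to 0.255 CPM, for counting error only.

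Names were chosen as the 10 highest and lowest protein-coding line differences with at least 10 CPM in a group of each line, the opposite genes with the most marked changes, leading genes of 1 line and of each list, and a set of well-known genes. Not all genes that the rule names are printed, and genes with near-identical copies are given as uncertain or left out. Other genes named were picked after their values were seen. The members and gene lists were chosen with earlier results of these data known. Tried alternatives were other scalings and filters, DESeq2 1.42.0, limma 3.58.1 on log2(FPKM + 1) and log2(FPKM + 0.1), edgeR's test against a 1.2-fold change, a replicate block, the embedded libraries alone and each embedded library left out.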

Additional observations from a re-analysis of the deposited data

Results flagged for a closer look

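The change from Mix-Embed to Inject-Embed differed between Huh7 and HLF in 2044 genes by the test of the difference itself (edgeR's quasi-likelihood test), and 199 of these were called in both lines with opposite signs. The protein-coding genes among the 199 with the most marked changes in both lines, chosen by the naming rule, were as follows, each with its line difference on the log2 scale. Those higher were ID3 (1.14), ALDH1A1 (1.06), H2AC6 (1.02), CHST3 (1.01) and SERPINH1 (0.83), and EIF3CL (2.50) and EIF3C (1.64), near-identical copies that are uncertain. Those lower were NDRG1 (-1.70), HSD17B7 (-1.53), CPOX (-1.18), HMGCS1 (-1.11), FDPS (-1.11) and MVD (-1.07). Of these, 3 belong to mevalonate and farnesyl diphosphate synthesis (HMGCS1, MVD and FDPS) and HSD17B7 to a later step of cholesterol synthesis.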

How the results depend on the processing

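The count of 2044 genes was 2053 with size factors of the RLE method, 2257 with library totals alone, 1835 without the filter on low counts, 2287 in the 8 embedded libraries alone, 1503 with DESeq2, 2106 and 1606 with limma on log2(FPKM + 1) and log2(FPKM + 0.1), and 1482 to 1739 with 1 library left out. The test against a 1.2-fold change gave 648 line differences, 619 in genes measured in both lines, 13 of opposite sign, 1389 genes in Huh7, 260 in HLF and 3 lists with at least 50% of their members called in one direction, against 6 in the test of no change. The HLF count was 1056 with DESeq2, 982 and 670 with limma at the larger and smaller pseudocount, and 747 to 1631 with 1 library left out. Opposite genes numbered 108 and 94 with limma and 110 to 169 with 1 library left out. Genes at 1 log2 unit or more numbered 179 with limma on log2(FPKM + 1), which shrinks low genes. The number of members called lower was 20 to 21 for hypoxia, 13 to 15 for glycolysis and 19 to 22 for cholesterol over all settings, which does not say that they were the same members. The test against a 1.2-fold change left 5 ribosome biogenesis genes, 3 heat shock genes and 2 NRF2 targets called higher. The counts of other lists that moved by over 1.5 times are given beside them. Of 151 genes named, the line difference of CDH1 reversed to -0.58 with limma on log2(FPKM + 1), and the cause was not tested; 40 of them changed call in a setting, 30 in one other than the 1.2-fold test. The replicate block gave 2037 genes. Deviations of same-numbered libraries from their group means correlated from -0.177 to 0.17 between groups. With 2 libraries per group, these values cannot decide whether same-numbered libraries shared a culture or day. Depth limits genes at a few CPM in 1 line, as in the interferon and metallothionein lists.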

Other observations

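Transcripts of the mitochondrial genome as a whole, transfer RNAs and ribosomal RNAs included, were called for the line difference in 17 of 34 tested genes, 15 higher and 2 lower. Beside this, 10.6% of all tested genes were called, 4.62% higher and 5.95% lower. The share of mitochondrial ribosomal RNA given above moved with the embedding method, and its part was not tested. Called genes were longer than the tested ones: the median length was 5691 bases for those higher, 5048 for those lower and 4095 for all tested genes. Protein-coding genes made up 96.0% of the higher, 92.4% of the lower and 74.9% of the tested genes. Called genes also stood at a higher level. The median of the mean CPM over the embedded groups was 70.4 for those higher, 56.5 for those lower and 13.0 for all tested genes. The part of this level in the lengths and protein-coding shares was not tested.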
